A study of Rattus norvegicus with 24 samples.

Results

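The genes of the 3 casein kinase 2 (CK2) subunits, Csnk2a1, Csnk2a2 and Csnk2b, were followed in rat kidneys of congenic and salt-sensitive strains. Every probe set of 2 Affymetrix arrays whose only gene symbol was one of these names was taken, which gave 9 of 31142 probe sets and 3 of 13810 genes. Csnk2a1 had 5 probe sets, Csnk2a2 had 3 and Csnk2b had 1. Csnk2a1 was picked because its deposited signal shifted in opposite directions in the congenic strains relative to S, so its values are given below as a description without a test. Csnk2a2 and Csnk2b came in as the other subunits of the same enzyme.

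CK2 is a serine and threonine kinase built from catalytic subunits, alpha (Csnk2a1) and alpha prime (Csnk2a2), held together by a dimer of the regulatory subunit beta (Csnk2b). It is active without a second messenger, prefers sites followed by acidic residues, and phosphorylates a wide range of proteins of transcription, ribosome production, translation, Wnt and NF-kappaB signalling and cell survival. In kidney epithelium its known substrates include subunits of the epithelial sodium channel. Despite its name it is not related closely to casein kinase 1, and it belongs with the cyclin-dependent, MAP, GSK3 and CLK kinases in the CMGC group.

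The samples were left kidneys of male rats of 3 strains: the congenic substrains ET3x2 and ET3x1, and the inbred Dahl salt-sensitive strain SS/jr (S). Congenic rats carry alleles of a salt-resistant strain on the S background, here from general knowledge around the endothelin 3 gene on chromosome 3, and the segment ends were not used here. All rats ate feed with 0.4% NaCl up to 39 to 41 days of age and feed with 2% NaCl for the next 28 days, and were 67 to 69 days old at the end. RNA was pooled from 3 rats per pool for ET3x2 (pools I, J, K and L) and ET3x1 (E, F, G and H) and from 2 rats per pool for S (A, B, C and D), so that 32 rats gave 12 pools. Each pool was read on RAE230A and on RAE230B, in 24 arrays, and 1 pool was 1 replicate. A pool averages its rats, no group on the low-salt feed alone was used here, and each congenic strain is 1 line.

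The deposited values, 1 per probe set and pool, were read as log2 signals from their range, so that a difference of 1 is a doubling of signal. A probe set was tested where its mean over the 12 pools reached the 30th percentile of its array, 7.52 on RAE230A and 6.85 on RAE230B, which 21799 probe sets did. The kidney could be recognised by its markers in all pools: the mean log2 signal of 6 proximal tubule markers lay between 12.74 and 12.84 in ET3x2, 12.58 and 12.80 in ET3x1 and 12.65 and 12.80 in S. Markers of immune cells, of which 5 of 7 were tested, had higher means in both congenic strains, 8.78 to 9.04 in ET3x2 and 8.75 to 9.09 in ET3x1 against 8.49 to 8.60 in S. Jchain, the joining chain of antibody-secreting cells, was the called one among them in both contrasts with S and carried much of this difference. Without it the mean of the other 4 was 8.53 to 8.77 in ET3x2, 8.51 to 8.71 in ET3x1 and 8.47 to 8.53 in S, and Cd163 was negative in both contrasts. Of the 5 collecting duct markers, Atp6v1b1, a proton pump subunit, was called higher in ET3x1 than in S (0.33, SE 0.069, adjusted p = 0.0483), and the other 4 were negative there. The beta-actin 5′ minus 3′ signal, a reading of how complete the labelled RNA was, was highest on RAE230A in ET3x2 pool J (−1.14) and S pools A and B (−1.27 in each), against −2.10 to −1.66 in the other 9. The part of these immune and RNA measures in the results that follow was not tested, except where a fit with the actin signal is given.

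Of the 5 probe sets annotated to Csnk2a1, the gene of the catalytic alpha subunit, 1 on RAE230B carried most of the shift. In the contrasts of ET3x2, 1 on the same array moved less, and the 2 tested on RAE230A moved little. For ET3x1 against S, 1392650_at on RAE230B (0.19) and 1375636_at on RAE230A (0.22) were alike. In the probe set 1384339_s_at the log2 signal was 6.92, 6.84, 6.39 and 6.55 in ET3x2 pools I to L, 8.90, 8.37, 9.03 and 8.24 in ET3x1 pools E to H, and 7.91, 7.23, 7.51 and 7.11 in S pools A to D. All ET3x1 pools were above all S pools, and all ET3x2 pools were below all S pools, so that no strain overlapped another. Means were 6.67 ± 0.25 in ET3x2, 8.64 ± 0.39 in ET3x1 and 7.44 ± 0.36 in S (SD, n = 4 pools each). The order of the levels was ET3x1, then S, then ET3x2, with a gap between the pools at each step. In whole kidney RNA, fewer cells with a transcript and less of it per cell cannot be told apart.

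Relative to S, the signal of 1384339_s_at was higher by 1.20 in ET3x1 (log2, SE 0.20, 2.29-fold) and differed by −0.77 in ET3x2 (SE 0.20). Between the congenic strains it differed by −1.96 in ET3x2 relative to ET3x1 (SE 0.20). No fold is given for the differences of ET3x2, because its mean of 6.67 lay under the filter level of 6.85, where an unknown background sets the size. Pools did not overlap in 6.4% of tested probe sets for ET3x1 against S, in 5.95% for ET3x2 against S and in 9.15% for ET3x2 against ET3x1, and nothing is read from these shares for Csnk2a1, which was chosen on these contrasts. The 3 differences were of similar size after adjustment for the actin signal, at 1.22 for ET3x1 against S, −0.79 for ET3x2 against S and −2.01 for ET3x2 against ET3x1. Without pools A, B and J they were 1.33 for ET3x1 against S, −0.69 for ET3x2 against S and −2.02 for ET3x2 against ET3x1.

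The second RAE230B probe set, 1392650_at, had log2 signals of 7.58, 7.59, 7.57 and 7.85 in ET3x2 pools, 8.41, 8.03, 8.29 and 8.36 in ET3x1 pools, and 8.10, 8.22, 8.30 and 7.69 in S pools. Every ET3x2 pool was below every ET3x1 pool, while S overlapped both, with pool D down among the ET3x2 pools. The mean was 7.65 ± 0.14 in ET3x2, 8.27 ± 0.17 in ET3x1 and 8.08 ± 0.27 in S. The strains stood in the same order as in 1384339_s_at, but the pools of neighbours in that order overlapped, those of ET3x2 and S only in that S pool D lay under ET3x2 pool L. ET3x2 differed from ET3x1 by −0.62 (SE 0.12, 0.649-fold), from S by −0.43 (SE 0.12), and ET3x1 from S by 0.19 (SE 0.12).

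On RAE230A, 1375636_at had log2 signals of 10.54, 10.33, 10.65 and 10.64 in ET3x2, 10.60, 10.78, 10.82 and 10.61 in ET3x1, and 10.49, 10.22, 10.60 and 10.64 in S. The strains overlapped, and S pool B and ET3x2 pool J, both high in the actin measure, were the lowest of the 12. The differences were 0.22 for ET3x1 against S, 0.05 for ET3x2 against S and −0.16 for ET3x2 against ET3x1 (SE 0.11 each). In 1376616_at the signals were 10.76, 10.64, 10.73 and 10.77 in ET3x2, 10.76, 10.52, 10.75 and 10.84 in ET3x1, and 10.69, 10.66, 10.79 and 10.74 in S. Here the strain means were within 0.0080 of each other (SE of a difference 0.079), and the lowest and the highest of the 12 pools, F and H, were both ET3x1.

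The fifth, 1387170_at, lay under the filter level of RAE230A in all 12 pools, at 6.84 to 7.13 in ET3x2, 6.87 to 7.07 in ET3x1 and 7.01 to 7.16 in S. It was not tested, and no fold is given. It is the only one of the 9 probe sets for which the array's annotation names a RefSeq messenger RNA as its source; the other 8 were designed on other GenBank entries. The suffix of 1384339_s_at marks a set whose probes match more than 1 transcript, and these can come from different genes. Which transcripts its probes match was not tested here. The rat annotation lists 2 pseudogenes of Csnk2a1, on chromosomes 1 and 10, and whether probes match them was not tested here.

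**Figure D1:**
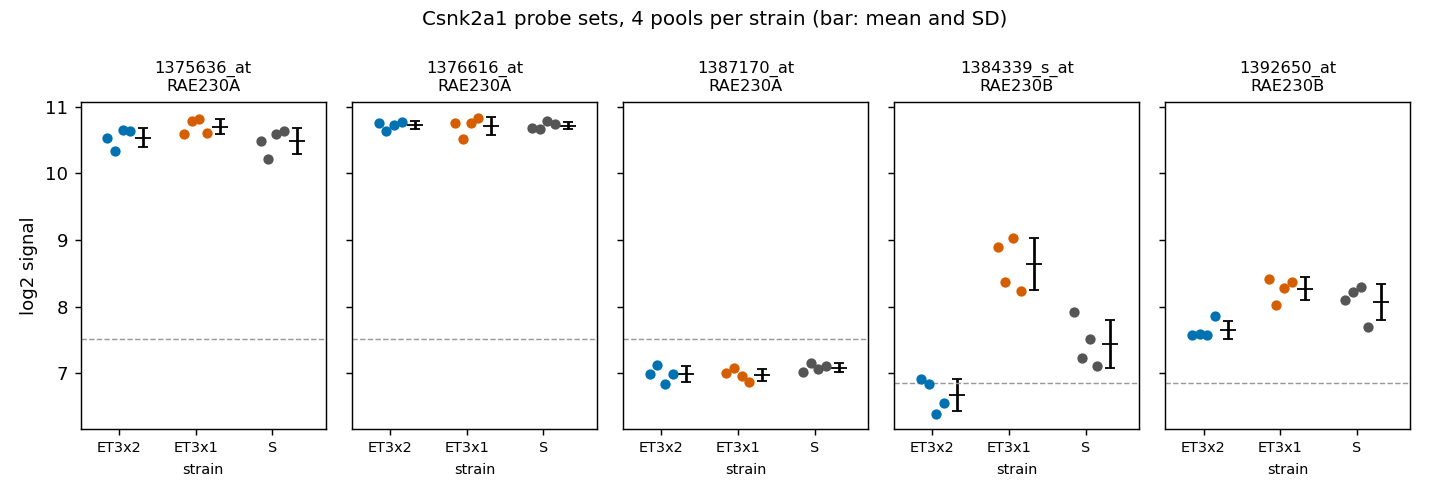
Log2 signal of the 5 Csnk2a1 probe sets in the 12 pools, 1 panel per probe set, with ET3x2, ET3x1 and S from left to right. Points are pools, bars are the strain mean and SD (n = 4), and the dashed line is the filter level of the array. In 1384339_s_at the ET3x1 pools lie at 8.24 to 9.03 and the ET3x2 pools at 6.39 to 6.92, while the RAE230A panels show overlapping strains.

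The probe sets of Csnk2a1 were then set against each other pool by pool, each as its difference from its own S mean. In ET3x1 pools, 1384339_s_at deviated from S by more than 1376616_at did, by 1.20 ± 0.39 (SD, n = 4, range 0.68 to 1.56). In ET3x2 pools the same gap was −0.77 ± 0.27 (range −1.06 to −0.52). In S pools, where the mean gap is 0 by construction, single pools ran from −0.35 to 0.51. So each ET3x1 pool lay above, and each ET3x2 pool below, the range of the S pools.

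Against 1375636_at the gap was −0.82 ± 0.37 in ET3x2 and 0.98 ± 0.37 in ET3x1, with S pools from −0.49 to 0.47. One ET3x2 pool, at −0.44, was inside the range of S. Against 1392650_at, on the same array, it was −0.34 ± 0.32 in ET3x2 and 1.00 ± 0.36 in ET3x1. Gaps with 1392650_at ran from −0.67 to −0.03 in ET3x2 pools and overlapped those of S pools (−0.35 to 0.46), while all ET3x1 pools were higher (0.51 to 1.39). These gaps come from the values that led to the choice of Csnk2a1 and carry no test.

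Few genes on these arrays had probe sets that disagreed by as much, although Csnk2a1 was chosen for a wide shift and this too is a description. Between ET3x2 and ET3x1 the log2 differences of the 4 tested Csnk2a1 probe sets spanned 1.97, against a median span of 0.14 over the 2978 genes with at least 2 tested probe sets. A span at least as wide was found in 3 genes, Csnk2a1 included, which is 0.101% of them. The size of the Csnk2a1 spans with ET3x2 is uncertain, because its mean of 6.67 in 1384339_s_at lay under the filter level. For ET3x1 against S the span was 1.20, reached by 12 genes, and for ET3x2 against S it was 0.82, reached by 15. A span tends to be wider where a gene has more probe sets. Among the 116 genes with exactly 4 tested probe sets, the median span between ET3x2 and ET3x1 was 0.29. In this set the Csnk2a1 span was reached by 1 gene, itself, for ET3x2 against ET3x1. It was reached by 4 for ET3x2 against S and by 2 for ET3x1 against S, Csnk2a1 included. Where 1 probe set stood for each gene, by the highest mean and with RAE230A preferred, Csnk2a1 was read by 1376616_at, and its differences were −0.0015 for ET3x1 against S, 0.0065 for ET3x2 against S and 0.0080 for ET3x2 against ET3x1.

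Csnk2a2 (chromosome 19), which encodes the alternative catalytic subunit alpha prime, showed no called difference. Its RAE230A probe set 1371326_at had log2 signals of 9.60, 9.53, 9.58 and 9.51 in ET3x2, 9.59, 9.62, 9.52 and 9.49 in ET3x1, and 9.57, 9.59, 9.48 and 9.59 in S. All 12 pools lay within 0.14 of each other. The differences were −0.0014 for ET3x2 against ET3x1 (SE 0.066, adjusted p = 0.995), 0.00074 for ET3x2 against S (adjusted p = 0.999) and 0.0021 for ET3x1 against S (adjusted p = 0.991). For each, the 95% confidence interval stayed between −0.14 and 0.14.

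The RAE230B probe set of Csnk2a2, 1378282_at, had log2 signals of 8.15, 8.41, 8.15 and 8.23 in ET3x2, 8.71, 8.53, 8.40 and 8.44 in ET3x1, and 8.66, 8.41, 8.53 and 8.22 in S. Of the ET3x2 pools, I, K and L were below all ET3x1 pools, and J was just above the lowest of them. ET3x2 was at −0.28 relative to ET3x1 (SE 0.098, 95% interval −0.49 to −0.07), which missed the threshold over the whole array (adjusted p = 0.258), and at −0.22 relative to S (adjusted p = 0.460). It passed in 2 of 20 alternatives. With the actin signal as a covariate the difference between the congenic strains was −0.37 (adjusted p = 0.0414), and with estimated array weights it was −0.36 (adjusted p = 0.0110). For this contrast these settings called 502 and 1658 of all tested probe sets, against 323 in the main fit. ET3x1 and S differed by 0.06 (adjusted p = 0.870).

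The third probe set of Csnk2a2, 1386555_at, was not tested because its mean of 6.54 lay under the filter level of RAE230B. Its pools were at 6.40 to 6.65 in ET3x2, 6.28 to 6.61 in ET3x1 and 6.43 to 6.67 in S, with all strains overlapping.

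Csnk2b (chromosome 20), the regulatory beta subunit that joins the catalytic ones and helps to choose substrates, had its highest pools in ET3x2. The log2 signal of 1387108_at was 12.13, 11.80, 12.12 and 11.97 in ET3x2, 11.56, 11.87, 11.49 and 11.56 in ET3x1, and 11.55, 11.53, 11.84 and 11.63 in S. Pools I, K and L of ET3x2 were above all other pools, and pool J lay under ET3x1 pool F and S pool C, so that the groups overlapped by 1 pool on each side. Means were 12.01 ± 0.15 in ET3x2, 11.62 ± 0.17 in ET3x1 and 11.64 ± 0.14 in S (SD, n = 4).

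Csnk2b was at 0.39 in ET3x2 relative to ET3x1 (log2, SE 0.10, 1.31-fold, adjusted p = 0.0972) and at 0.37 relative to S (SE 0.10, 1.29-fold, adjusted p = 0.201), and neither difference passed. Unadjusted p were 0.00221 and 0.00310, and the 95% intervals ran from 0.16 to 0.61 and from 0.15 to 0.59. The difference from ET3x1 passed in 3 of 20 alternatives. These were without ET3x1 pool F, at 0.47 (adjusted p = 0.0308), quantile normalisation, at 0.37 (adjusted p = 0.0406), and array weights, at 0.48 (adjusted p = 0.00466). For that contrast they called 488, 394 and 1658 of all tested probe sets, against 323 in the main fit. The difference from S passed in 1 of 20, with array weights, at 0.41 (adjusted p = 0.0372), where 419 probe sets were called against 75. ET3x1 and S differed by −0.02 (adjusted p = 0.958). Pool J, the ET3x2 pool with the lowest Csnk2b signal, was also the one with the highest actin 5′ minus 3′ signal. In ET3x1 it went the other way, where pool F had the highest actin signal (−1.66) and the highest Csnk2b signal (11.87). Without pools A, B and J the difference between the congenic strains was 0.45 (adjusted p = 0.0516).

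By limma's adjusted p, 0 of the 3 tested probe sets of Csnk2a2 and Csnk2b passed in any contrast. The same test called 0.44% of all tested probe sets for ET3x1 against S, 0.344% for ET3x2 against S and 1.48% for ET3x2 against ET3x1. At an unadjusted p under 0.05, 1378282_at and 1387108_at passed in both contrasts of ET3x2, and none of the 3 passed for ET3x1 against S. Of all tested probe sets, 10.9% met that limit for ET3x2 against S, 13.1% for ET3x2 against ET3x1 and 11.8% for ET3x1 against S. Both contrasts with S use the same 4 S pools, and the values of each are given side by side for that reason.

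**Figure D2:**
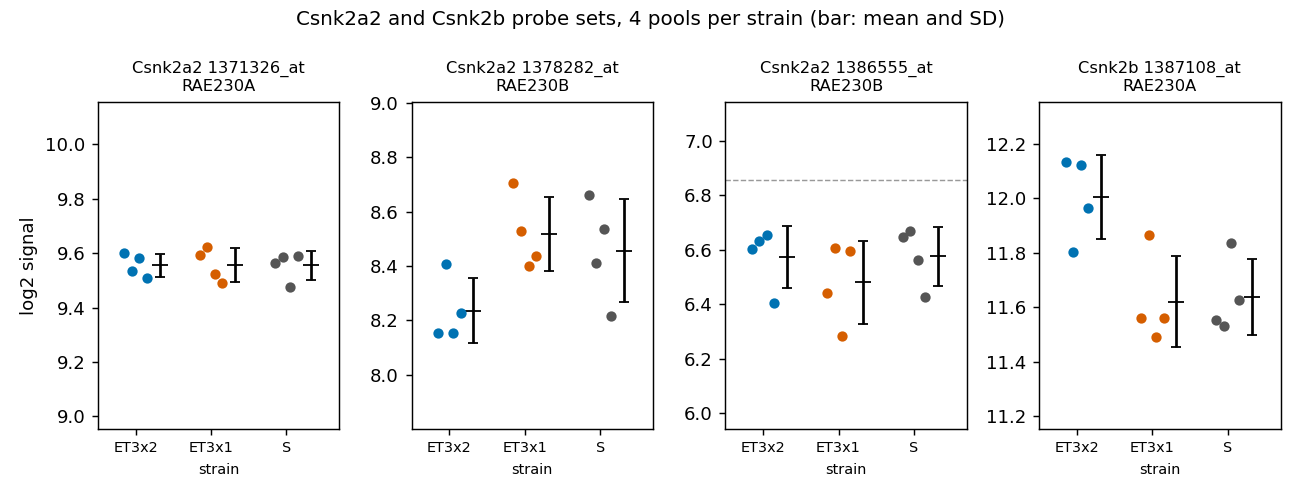
Log2 signal of the 3 Csnk2a2 probe sets and the Csnk2b probe set in the 12 pools, with ET3x2, ET3x1 and S from left to right. Points are pools, bars are the strain mean and SD (n = 4), and the dashed line is the filter level; the axes span equal widths but start at different levels. For Csnk2b, 3 ET3x2 pools lie above all pools of the other strains, and pool J at 11.80 does not.

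**Figure D3:**
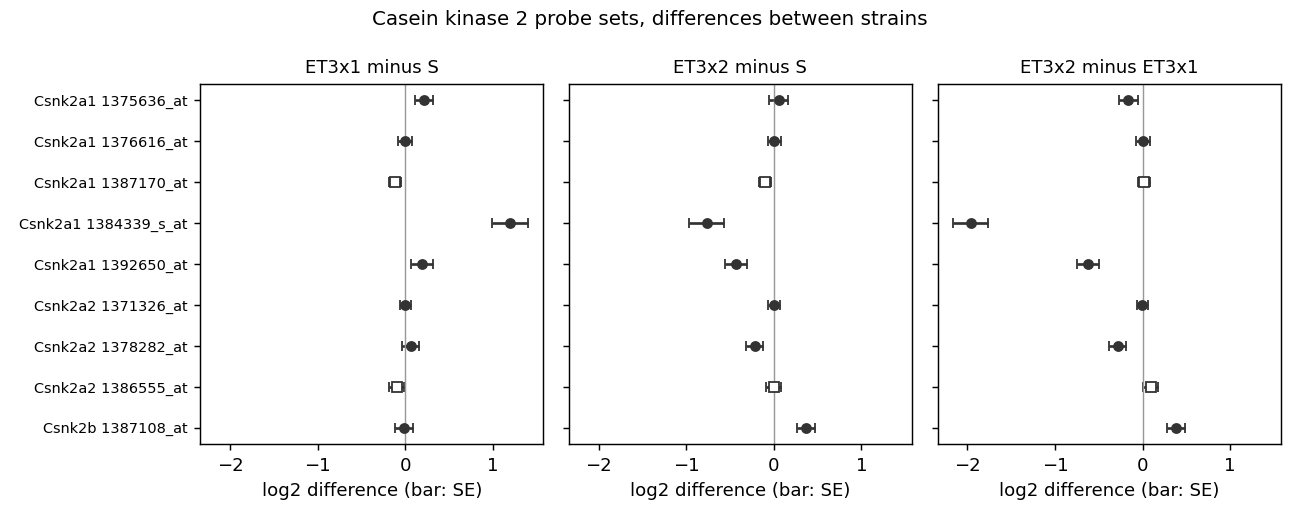
Log2 differences between strains for the 9 casein kinase 2 probe sets, 1 panel per contrast, with bars for the SE from the fit with 4 pools per strain. Open squares are the 2 probe sets under the filter level. The Csnk2a1 probe set 1384339_s_at stands at 1.20 for ET3x1 minus S, −0.77 for ET3x2 minus S and −1.96 for ET3x2 minus ET3x1, and the Csnk2b probe set is at 0.37 for ET3x2 minus S and 0.39 for ET3x2 minus ET3x1.

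Within strains the other members did not follow 1384339_s_at closely. After each strain's mean was removed, the Pearson correlation over the 12 pools with 1384339_s_at was 0.56 for Csnk2a2 1378282_at, 0.27 for Csnk2a1 1392650_at and −0.29 for Csnk2b 1387108_at, and between −0.24 and 0.09 for the other 5. Of these, 1378282_at, 1392650_at and Csnk2a2 1386555_at (−0.24) were measured on the same array hybridisations as 1384339_s_at. The coefficients are descriptions of 12 pools.

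The genes whose probe sets were most like 1384339_s_at over the 12 pools were Rnd3, Ppp1r12a, Mycbp2, Eprs1, Atxn7l3b, Wasl, Zswim6, Ddx6, Rbm39 and Nfix. They were the 10 with the highest Pearson correlation among tested probe sets of 1 symbol, with r from 0.949 to 0.976, and from 0.60 to 0.94 after each strain's mean was removed. All these probe sets read the same pooled RNA, and only those on RAE230B share the hybridisations of 1384339_s_at. The ranking picks probe sets with the same order of strains, so the correlations are a description. Of the 10, 7 were on RAE230A and 3 on RAE230B.

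Eprs1, the glutamyl-prolyl transfer RNA synthetase, was at a mean of 8.73 in ET3x2, 10.21 in ET3x1 and 9.36 in S. Ddx6, an RNA helicase of processing bodies, had the highest correlation within strains, 0.94, with means of 8.82 in ET3x2, 10.36 in ET3x1 and 9.69 in S.

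Among the rest were Ppp1r12a, the targeting subunit of myosin phosphatase, Wasl, which starts branched actin filaments, the splicing factor gene Rbm39, the ubiquitin ligase gene Mycbp2 and the transcription factor gene Nfix. Over the 10 probe sets the ET3x2 minus ET3x1 difference ran from −1.54 to −0.42 with a median of −1.06. Relative to S it ran from −0.87 to −0.14 in ET3x2 and from 0.28 to 0.85 in ET3x1. All 10 genes had further tested probe sets, 17 in number, whose differences between ET3x2 and ET3x1 ran from −0.65 to 0.25 with a median of −0.04. The probe set ranked was the most alike of its gene, so a smaller difference in the others was likely by that choice.

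**Figure D4:**
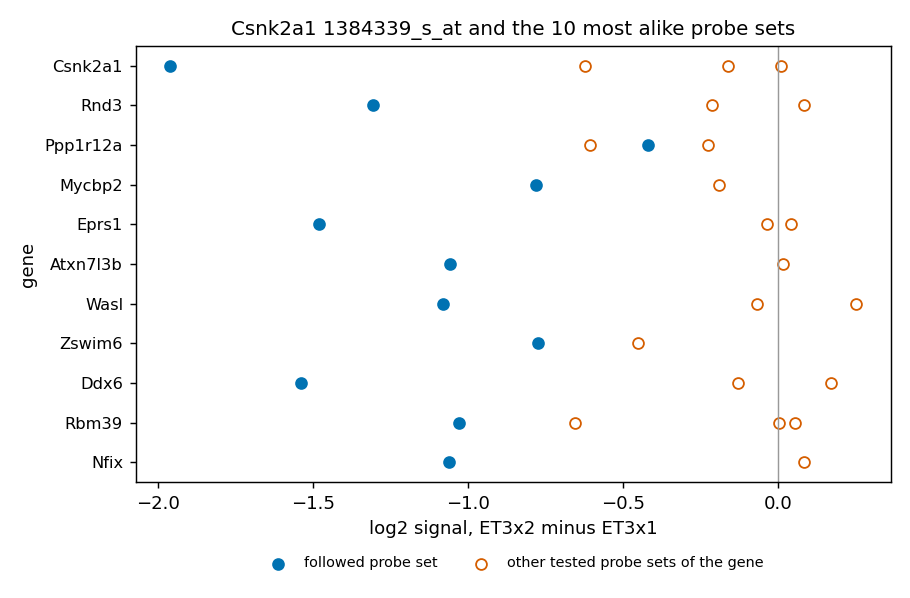
Log2 difference, ET3x2 minus ET3x1, for Csnk2a1 and the 10 genes whose probe sets were most like 1384339_s_at. Filled points are 1384339_s_at and the alike probe sets, and open points are the other tested probe sets of each gene. Filled points lie at −1.96 for Csnk2a1 and −1.54 to −0.42 for the 10 genes, with most open points closer to 0.

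Csnk2a1 lies on chromosome 3, the chromosome of Edn3, with 326 protein-coding genes between them in the order of the GRCr8 annotation. The 5 nearest genes on each side with a tested probe set were Psmf1, Angpt4, Fam110a, Slc52a3 and Srxn1 before Csnk2a1, and Rbck1, Trib3, Nrsn2, Zcchc3 and C3h20orf96 after it. None of their 11 probe sets passed limma's test in any contrast, with a smallest adjusted p of 0.423 for ET3x1 against S, 0.362 for ET3x2 against S and 0.222 for ET3x2 against ET3x1. At an unadjusted p under 0.05, 1 of the 11 passed for ET3x1 against S, 1 for ET3x2 against S and 2 for ET3x2 against ET3x1. Of all tested probe sets, 11.8%, 10.9% and 13.1% did so in these contrasts, and the neighbours' counts are near those shares.

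The neighbours' log2 differences ran from −0.21 to 0.15 in ET3x1 against S and from −0.06 to 0.23 in ET3x2 against S. Between ET3x2 and ET3x1 all 11 were positive, from 0.02 to 0.44, and the median over all genes, 0.0320, was positive too. The share of positive probe sets over the arrays was not counted, so nothing is read from this sign. Csnk2a1 was at −1.96 in 1384339_s_at, −0.62 in 1392650_at, −0.16 in 1375636_at and 0.0080 in 1376616_at. Psmf1, an inhibitor of the proteasome, had the largest difference of the neighbours at 0.44, with means of 9.59 in ET3x2 and 9.15 in ET3x1 (SE 0.17, adjusted p = 0.222), and its pools overlapped. Srxn1, which restores oxidised peroxiredoxins, was at 0.06 in one probe set (adjusted p = 0.780) and 0.13 in the other (adjusted p = 0.451). Rbck1, part of the linear ubiquitin ligase complex, was at 0.24 (SE 0.090, adjusted p = 0.229).

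Around CK2 itself, 104 genes of 6 lists were followed: binding partners, nuclear substrates, signalling and translation substrates, substrates in ion transport, the casein kinase 1 family and other CMGC kinases. Each gene was read by 1 probe set, and 80 genes were tested. None was called for either congenic strain against S, where limma called 0.214% of 11218 genes for ET3x1 and 0.196% for ET3x2. At an unadjusted p under 0.05 there were 4 of 80 list genes for ET3x1 against S and 8 of 80 for ET3x2 against S, which is 5% and 10%, against 11.9% and 11.6% of all genes. Between ET3x2 and ET3x1, 1 of the 80 was called, 1.25% against 0.998% of all genes, a share near the background. At an unadjusted p under 0.05 there were 15 of 80 in that contrast, 18.8% against 13.4% of all genes.

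The called gene was Clk1, a CMGC kinase that phosphorylates SR splicing factors. Its probe set 1399022_at had log2 signals of 9.86, 10.20, 10.17 and 10.33 in ET3x2, 10.98, 10.80, 10.72 and 10.85 in ET3x1, and 10.91, 10.83, 10.96 and 10.21 in S. All ET3x2 pools were below all ET3x1 pools, and S pool D was among the ET3x2 pools. Clk1 was at −0.70 in ET3x2 relative to ET3x1 (log2, SE 0.15, adjusted p = 0.0362). The call ended without any one of pools E, G, H, I, J or K, with differences of −0.74 to −0.61 and adjusted p of 0.0631 to 0.128, and without pools A, B and J together (adjusted p = 0.0514). Relative to S it was at −0.59 in ET3x2 (adjusted p = 0.156) and at 0.11 in ET3x1 (adjusted p = 0.777).

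Cdk1, the mitotic kinase of the same group, had ET3x2 pools at 8.83 to 9.02, ET3x1 pools at 8.45 to 8.78 and S pools at 8.35 to 8.66. Its ET3x2 pools were above those of both other strains, with differences of 0.36 relative to ET3x1 (SE 0.090, adjusted p = 0.0813) and 0.41 relative to S (adjusted p = 0.106), and neither passed. Over the 27 CMGC kinases tested, 13 were positive and 14 negative between ET3x2 and ET3x1, and the median was −0.02. For ET3x1 against S the widest differences in this list were Srpk1, a kinase of SR proteins, at 0.30 (adjusted p = 0.273) and Gsk3b, a kinase of glycogen and Wnt signalling, at 0.27 (adjusted p = 0.302), where the S mean of Gsk3b, 7.47, lay under the filter level and the size is uncertain. The list median was 0.01 in that contrast, and for ET3x2 against S the median was −0.02. In all genes the medians were 0.0320 for ET3x2 against ET3x1, 0.0338 for ET3x2 against S and 0.00070 for ET3x1 against S.

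Of the CK2 nuclear and nucleolar substrates, 13 of 15 tested were negative in ET3x2 against S, with a median of −0.08, and none passed. The widest was nucleolin (Ncl), a histone chaperone of the nucleolus, with means of 10.52 in ET3x2 and 10.80 in S (difference −0.28, SE 0.11, adjusted p = 0.362). Hmga1, a chromatin protein, went the other way at 0.18 (adjusted p = 0.469). Between ET3x2 and ET3x1, 10 of 15 were negative with a median of −0.06, led by the topoisomerase gene Top2b at −0.32 (SE 0.12, adjusted p = 0.240) and Ncl at −0.30 (adjusted p = 0.216). For ET3x1 against S 8 of 15 were negative with a median of −0.02, and the widest were Top2b at 0.16 (adjusted p = 0.594) and Myc at −0.14 (adjusted p = 0.627). The share of negative genes over all tested genes was not counted, so nothing is read from the counts of signs in any of the lists.

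CK2 partners were centred near 0 in each contrast, with 12 genes tested and none called. Their medians were 0.0027 for ET3x2 against ET3x1, 0.01 for ET3x2 against S and −0.01 for ET3x1 against S. Ssrp1, a subunit of the histone chaperone FACT that binds CK2, was at −0.19 in ET3x2 relative to ET3x1 (SE 0.075, adjusted p = 0.257), and Cdc37, the kinase co-chaperone, at 0.17 (adjusted p = 0.475). Relative to S the widest were Fgf1, a growth factor, at 0.18 in ET3x2 (adjusted p = 0.341), and Cdc73, of the PAF1 complex, at −0.18 in ET3x2 (adjusted p = 0.509) and −0.18 in ET3x1 (adjusted p = 0.490). In ET3x1 Cdc37 was at −0.15 relative to S (adjusted p = 0.568).

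Of the substrates in signalling and translation, 15 were tested and none passed. Between ET3x2 and ET3x1 the co-chaperone gene Fkbp4 was at 0.33 (SE 0.12, adjusted p = 0.220) and Ptges3, the HSP90 co-chaperone p23, at −0.24 (adjusted p = 0.278), with a median over the list of 0.00055. In ET3x2 against S 9 of 15 were negative, with a median of −0.07, and Eif3j, a subunit that joins the translation factor eIF3, was at −0.24 (adjusted p = 0.547), as was Ptges3 (adjusted p = 0.387). In ET3x1 against S 10 of 15 were negative, with a median of −0.04, and the widest were Vcp, an ATPase that unfolds ubiquitinated proteins, at −0.32 (adjusted p = 0.322) and Bid, a cell death regulator, at 0.21 (adjusted p = 0.274).

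For substrates that move salt and ions, all 6 genes were tested and none passed. Scnn1b, the beta subunit of the epithelial sodium channel, was at 9.45 in ET3x2, 9.22 in ET3x1 and 9.36 in S, so that ET3x2 was at 0.23 relative to ET3x1 (SE 0.068, adjusted p = 0.135) and ET3x1 at −0.14 relative to S (adjusted p = 0.395). Scnn1g, the gamma subunit, was at −0.15 in ET3x1 relative to S (adjusted p = 0.444). The chloride channel gene Cftr was at −0.31 in ET3x2 relative to S (SE 0.11, adjusted p = 0.326) and at −0.20 relative to ET3x1 (adjusted p = 0.540), and Slc9a3, the apical sodium and proton exchanger, at −0.16 in ET3x2 relative to S (adjusted p = 0.720). The list medians were −0.09 for ET3x2 against ET3x1, −0.13 for ET3x2 against S and −0.09 for ET3x1 against S, with 5 of 6 negative in each contrast with S.

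The casein kinase 1 genes, of a separate kinase family, gave 5 tested members and no call. Csnk1a1, which starts the phosphorylation of beta-catenin, was at −0.21 in ET3x2 (SE 0.12, adjusted p = 0.522) and −0.20 in ET3x1 (adjusted p = 0.478), each relative to S. Csnk1g3 was at 0.20 in ET3x2 relative to S (adjusted p = 0.746), and Csnk1g2 at −0.16 in ET3x1 relative to S (adjusted p = 0.408). Between the congenic strains Csnk1g2 was at 0.14 (adjusted p = 0.453) and Csnk1e, a kinase of the circadian clock, at 0.11 (adjusted p = 0.659). The list medians were 0.08 for ET3x2 against ET3x1, −0.03 for ET3x2 against S and −0.16 for ET3x1 against S.

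**Figure D5:**
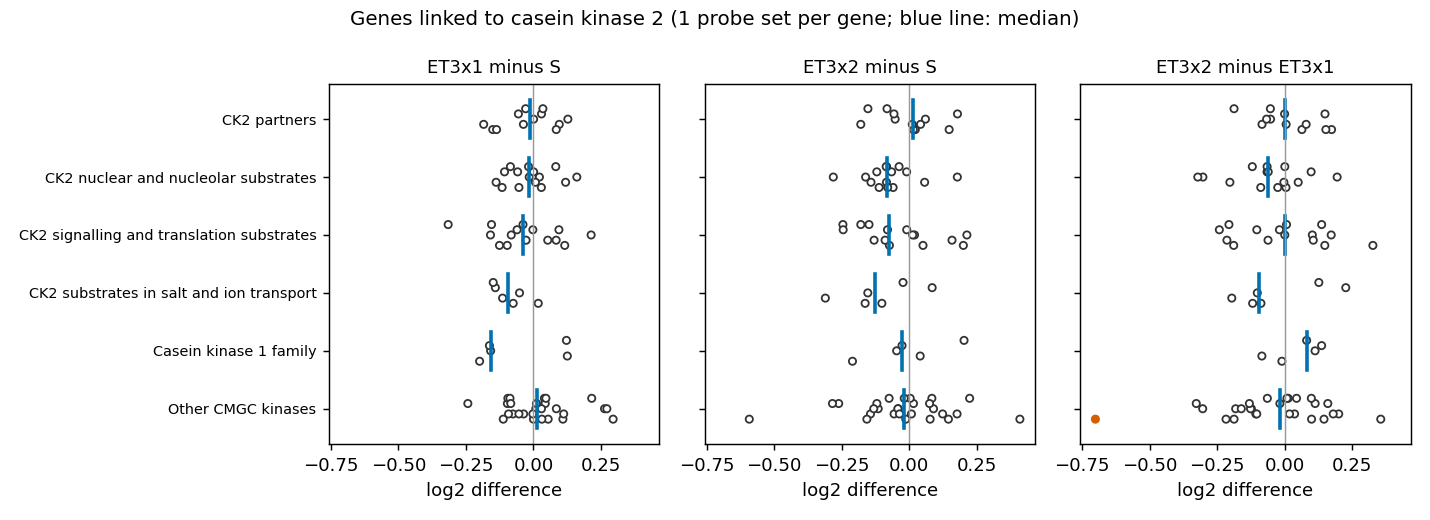
Log2 differences of the 80 tested genes linked to casein kinase 2, 1 point per gene, in 6 lists and 3 contrasts, with a blue line at each list's median. The filled point is the only called gene, Clk1 at −0.70 in ET3x2 minus ET3x1. All list medians lie between −0.16 and 0.08.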

How the data were processed

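Left kidney RNA of 12 pools was hybridised to RAE230A and RAE230B. The authors deposited 1 value per probe set and pool; these deposited values were taken as log2 signal from their range (4.97 to 15.2 and 4.10 to 14.3), and their summarisation and normalisation are not given in the sources used here. Column medians were 8.49 to 8.60 and 7.55 to 7.62, and no scaling was added. Arrays give no read depth, and their number limits the precision. Per the labels, pools held separate rats, with no batch or pairing given.

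Genes were named through the array annotation and RefSeq GRCr8, used for names, chromosomes and gene order. Probe sets entered the tests unless they were among the 57 controls of their array or had a mean under its 30th percentile, and 11218 genes remained. Each array was fitted over all 3 strains with limma 3.58.1 under R 4.3.3 (lmFit, then eBayes, trended prior). Two-sided p-values were adjusted per array and contrast by the Benjamini-Hochberg method, with a threshold of 0.05. Intervals are 95%. Summaries and figures used Python 3.11.15 and matplotlib 3.10.9. The fit was checked on simulated data.

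The members and lists were chosen with earlier results of these data known. Named were all member probe sets, called list genes or otherwise the 2 widest of a list, 5 neighbours on each side and the 10 most alike genes; Cdk1 is among the 2 widest of its list. Alternatives were the filter, quantile normalisation, array weights, the prior, the actin covariate, 2-strain fits and leaving out pools. No probe, promoter or protein sequence was analysed here.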

Additional observations from a re-analysis of the deposited data

Results flagged for a closer look

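One pool stood apart within its strain among the 27 groups of 4 pools examined (9 probe sets in 3 strains). In the Csnk2a1 probe set 1392650_at, ET3x2 pool L had a log2 signal of 7.85, against 7.57 to 7.59 in the other 3 ET3x2 pools, and its gap to the nearest of them was 0.941 of the range of the 4. Chance flags about 1 in 20 such groups (5%). In 1384339_s_at, the other RAE230B probe set of Csnk2a1, pool L was at 6.55 and inside the range of the ET3x2 pools.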

How the results depend on the processing

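In all 19 alternatives that tested it, Csnk2a1 1384339_s_at stayed between −2.09 and −1.83 for ET3x2 against ET3x1, between −0.88 and −0.61 for ET3x2 against S and between 1.06 and 1.36 for ET3x1 against S. The other alternative, a filter at the 50th percentile, left this probe set out, because its mean lay at the 49.4th percentile of RAE230B. Several of the 19 cannot change a difference, namely no filter, the prior, 2-strain fits and, for each contrast, leaving out pools of the third strain. The numbers of called probe sets that serve as background depend on a threshold, so their changes cannot be compared with these ranges. For ET3x1 against S (96) they were 164 with array weights, 51 with only the 2 strains compared, 215 with the actin covariate, and 41 (without pool E) to 118 (without J) with 1 pool left out. For ET3x2 against S (75) they were 419 with array weights, 42 with only the 2 strains and 432 with the actin covariate, 17 without pools A, B and J, and 19 (without A, I or K) to 167 (without D) with 1 pool left out. For ET3x2 against ET3x1 (323) they were 1658 with array weights, 502 with the actin covariate, and 133 (without K) to 488 (without F) with 1 pool left out. Called list genes for ET3x2 against S (0) were 2 with array weights and 2 with the actin covariate, and 0 to 2 (without D) with 1 pool left out. Between ET3x2 and ET3x1 (1) they were 8 with array weights, 3 with the actin covariate, 0 without A, B and J, and 0 to 2 with 1 pool left out; for ET3x1 against S they were 0 in all 20. Over the 20 alternatives Csnk2b was at 0.34 to 0.48 in ET3x2 relative to ET3x1 (adjusted p 0.00466 to 0.290) and at 0.33 to 0.44 relative to S (0.0372 to 0.572), and Csnk2a2 1378282_at at −0.37 to −0.22 relative to ET3x1 (0.0110 to 0.612). The cause of these changes was not tested. No paired analysis was possible because the strains share no pool letters. Probe sets near the filter level have a background that is not known.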
